A study of Mus musculus with 12 samples.

Results

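Apod, Ptgds, Trf, Car2, Anln, Ppp1r14a, Il33, Qdpr, Ndrg1 and Plekhb1 are 10 genes of mature oligodendrocytes, the cells that make the myelin of the central nervous system. They encode secreted carriers, a cytokine, enzymes, cytoskeletal proteins and proteins linked to stress. The set was drawn up because RNA of Apod and Ptgds stood against that of other myelin genes in ErbB2V664E mutants, so that comparison had already been used in choosing the genes and its values are given here as a description without a test. The comparison of dnEGFR mutants with their controls was not used in the choice and was tested. Each gene was read from the locus that carried its symbol, which gave 10 of the 33864 loci in the deposited table, and all 10 passed the expression filter that kept 13803 loci. The lowest value of any of them in a library was 1.56 FPKM, so each gene was above the filter in all 4 groups.

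RNA was measured in subcortical white matter of 12 mice in 4 groups of 3. Sox10-tTA;TRE-dnEGFR mutants carried a tetracycline transactivator driven by Sox10, which is expressed in cells of the oligodendrocyte lineage, and a responder transgene encoding a dominant-negative epidermal growth factor receptor, dnEGFR. Their controls were TRE-dnEGFR littermates with the responder alone, and both groups received doxycycline between postnatal days 21 and 35 and were 35 days old. Sox10-tTA;TRE-ErbB2V664E mutants carried the same transactivator with a responder for ErbB2V664E, an activated form of the receptor ErbB2. Their controls were TRE-ErbB2V664E littermates, and both groups received doxycycline between postnatal days 21 and 30 and were 30 days old. All 12 mice thus carried a responder and received doxycycline. No group carried the transactivator alone, and the sources used here do not say in which direction doxycycline acted on the transgenes.

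Apolipoprotein D (Apod) and lipocalin-type prostaglandin D synthase (Ptgds) belong to the lipocalin family, small secreted proteins that hold lipids in a barrel-shaped pocket. Transferrin (Trf) is the iron carrier of blood and brain, and in the brain oligodendrocytes are a main source of it. Carbonic anhydrase 2 (Car2), dihydropteridine reductase (Qdpr) and the nuclear cytokine interleukin 33 (Il33) are found in mature oligodendrocytes together with the structural proteins of myelin. Several of these genes are also expressed outside oligodendrocytes, Ptgds and Trf in choroid plexus, Ptgds and Apod in meningeal and perivascular fibroblasts, and Ndrg1 in many cells under low oxygen.

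RefSeq promoter sequences on GRCm38.p6 were at hand for 7 of the 10 genes, each with 250 bases before and 50 bases after the annotated start. Those of Apod and Ptgds are shown because the set was drawn up around these genes, and those of Qdpr and Plekhb1 because RNA of these genes was lower there and ran most closely together over the 12 libraries. Capitals mark matches, on either strand, to ACAAAG or ACAATG, which are core motifs of SOX factors. All sequences run 5′ to 3′ on the strand of the gene. Apod lies on the minus strand at chr16:31314759-31315058, Ptgds on the minus strand at chr2:25469700-25469999, Qdpr on the minus strand at chr5:45450180-45450479, and Plekhb1 on the minus strand at chr7:100662345-100662644 (the first of 2 promoters listed for it).
Apod: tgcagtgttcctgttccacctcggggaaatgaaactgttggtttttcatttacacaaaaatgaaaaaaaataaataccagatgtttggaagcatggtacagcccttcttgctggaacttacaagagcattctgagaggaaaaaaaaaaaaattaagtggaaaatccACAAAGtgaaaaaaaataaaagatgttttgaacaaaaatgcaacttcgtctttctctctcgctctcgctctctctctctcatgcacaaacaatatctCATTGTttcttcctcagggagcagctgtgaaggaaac
Ptgds: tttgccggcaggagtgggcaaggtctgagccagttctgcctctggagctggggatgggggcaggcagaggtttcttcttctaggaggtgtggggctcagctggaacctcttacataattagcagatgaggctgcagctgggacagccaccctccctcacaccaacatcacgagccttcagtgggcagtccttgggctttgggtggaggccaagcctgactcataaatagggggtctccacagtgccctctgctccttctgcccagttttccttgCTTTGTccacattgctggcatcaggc
Qdpr: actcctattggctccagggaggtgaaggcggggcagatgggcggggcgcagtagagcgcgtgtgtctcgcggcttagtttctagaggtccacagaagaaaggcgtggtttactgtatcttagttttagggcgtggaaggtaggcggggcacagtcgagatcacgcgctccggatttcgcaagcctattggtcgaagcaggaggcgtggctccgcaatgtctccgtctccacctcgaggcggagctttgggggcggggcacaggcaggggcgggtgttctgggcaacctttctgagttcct
Plekhb1: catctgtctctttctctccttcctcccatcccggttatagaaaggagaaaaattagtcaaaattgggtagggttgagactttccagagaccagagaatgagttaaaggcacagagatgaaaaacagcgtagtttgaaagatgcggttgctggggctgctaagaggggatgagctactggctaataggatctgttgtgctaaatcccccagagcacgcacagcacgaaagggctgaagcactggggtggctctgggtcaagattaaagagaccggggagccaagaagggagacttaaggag

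The Apod promoter held 1 ACAAAG, starting 84 bases before the start site, and 1 ACAATG on the opposite strand 13 bases after it. The Ptgds promoter held 1 ACAAAG on the opposite strand, 24 bases after the start site. Qdpr and the Plekhb1 promoter shown held neither. Among 32851 promoters of this length, 18.7% held ACAAAG and 12.6% held ACAATG on either strand, so such a match is a common feature. GC content was 37.3% in the Apod promoter, 57.7% in that of Ptgds, 60.7% in that of Qdpr and 49.0% in that of Plekhb1. Among the remaining promoters, ACGTG, the core of the hypoxia response element, occurred in that of Anln as the palindrome CACGTG, which is counted on both strands, and 19.6% of all promoters held it. TATAAA, the sequence of the TATA box, occurred in both promoters of Il33 and in 13.6% of all promoters. Counted from the start site, it lay at base -203 in promoter 1 of Il33 and at base -29 in promoter 2. Whether either match acts as a TATA box was not tested. The second promoter of Plekhb1 held 1 ACAAAG, and that of Ppp1r14a held none of the 4 motifs. Trf, Car2 and Ndrg1 lie on chromosomes 9, 3 and 15.

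The deposited values are FPKM, the number of sequenced fragments divided by transcript length and by library size, and they summed to 117363 to 134410 per library. The libraries held an estimated 16596881 to 24739626 fragments, so that 1 FPKM in a transcript of 2 kb stood for 33.2 to 49.5 fragments. Differences below are differences of log2(FPKM + 1), a scale on which changes of genes with low FPKM come out too small. A single library stood apart from its group. Of all loci, 38 passed the threshold between ErbB2V664E mutants and controls with all libraries, and 262 without ErbB2V664E mutant 1. For the 10 genes the differences in this line are therefore also given without that mouse. In whole tissue, fewer cells of a type and less RNA per cell cannot be told apart.

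Apod, the secreted carrier of arachidonic acid and other lipids, was lower in every dnEGFR mutant than in any dnEGFR control. It was at 52.5, 47.4 and 46.8 FPKM in the dnEGFR mutants 1 to 3, against 73.2, 61.6 and 59.9 FPKM in their controls. The means were 48.9 ± 3.14 and 64.9 ± 7.25 FPKM (SD, n = 3 each), and each mutant was below its own littermate, by -0.47, -0.37 and -0.35 on the log2 scale. The mean difference of -0.40 (SE 0.34, 95% interval -1.15 to 0.36) did not pass the threshold over all loci, its adjusted p by limma being 0.987. This SE rests on 1 spread pooled over the 4 groups, to which the ErbB2V664E mutants, with an SD of 37.8 FPKM, also contributed. The interval is thus not the spread of the dnEGFR mice alone. Fitted on the 6 libraries of this line alone, the adjusted p was 0.904, and over 13 alternatives it lay between 0.904 and 1.

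In the ErbB2V664E line Apod was at 32.3, 106 and 83.1 FPKM in mutants 1 to 3, against 34.7, 39.3 and 34.2 FPKM in controls. Mutants 2 and 3 were far above all controls and mutant 1 was below all of them, so the groups overlapped. The means were 73.9 ± 37.8 FPKM in mutants and 36.0 ± 2.81 FPKM in controls (SD, n = 3 each), a ratio of 2.05 and a log2 difference of 0.86. Between littermates the differences were -0.10, 1.41 and 1.26. Without mutant 1 the mean difference was 1.36, and without mutant 2 it was 0.52, the highest and lowest values with 1 library left out.

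Ptgds, which makes prostaglandin D2 and is secreted as beta-trace protein, had the widest contrast between the lines. Ptgds had 81.1, 36.2 and 42.5 FPKM in dnEGFR mutants, against 65.4, 32.4 and 58.0 FPKM in controls. These groups overlapped, and mouse 1 was high in both. The means of 53.3 ± 24.3 and 51.9 ± 17.3 FPKM (SD, n = 3 each) gave a difference of 0.01 (SE 0.35, 95% interval -0.78 to 0.79, adjusted p = 1 by limma). The interval leaves room for changes of either sign, so the gene is not shown to be unaffected.

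ErbB2V664E mutants had far more Ptgds RNA than their controls. Ptgds was at 120, 191 and 221 FPKM in ErbB2V664E mutants, against 36.3, 49.0 and 41.9 FPKM in controls. Every mutant was above every control, and mutant 1 was the lowest of the 3. The means were 177 ± 51.5 and 42.4 ± 6.38 FPKM (SD, n = 3 each), a ratio of 4.18 and a log2 difference of 2.00. The littermate differences of 1.70, 1.94 and 2.37 had 1 sign, and with single libraries left out the mean lay between 1.82 and 2.26. The plot of FPKM by library shows Apod and Ptgds beside the other 8 genes.

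**Figure D1:**
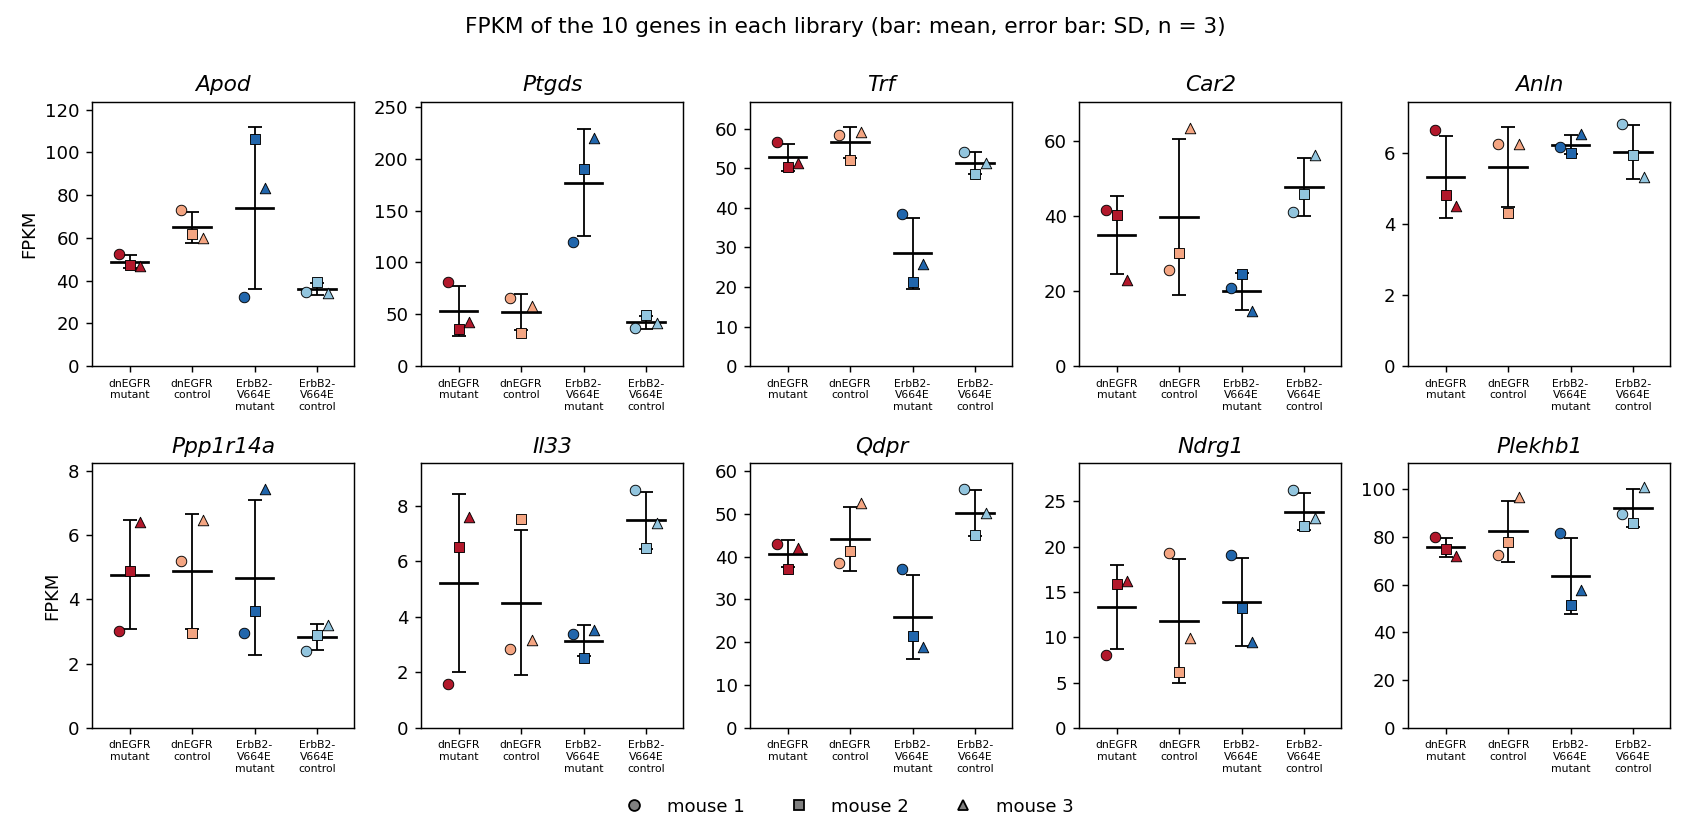
FPKM (vertical axis, linear, from 0) of the 10 genes in each of the 12 libraries, with groups along the horizontal axis, 1 marker shape per mouse number, a bar for the mean and an error bar for the SD of 3 mice. Ptgds sits between 120 and 221 FPKM in ErbB2V664E mutants, above every other library, while Apod is high in ErbB2V664E mutants 2 and 3 and at 32.3 FPKM in mutant 1.

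By group, Apod averaged 73.9 ± 37.8 FPKM in ErbB2V664E mutants, against 36.0 ± 2.81 in ErbB2V664E controls, and 48.9 ± 3.14 FPKM in dnEGFR mutants, against 64.9 ± 7.25 in dnEGFR controls. The ErbB2V664E mutants were highest on average but overlapped all 3 other groups. All 6 dnEGFR libraries lay above the 3 ErbB2V664E controls. For Ptgds the ErbB2V664E mutants lay apart at 177 FPKM, while dnEGFR mutants, dnEGFR controls and ErbB2V664E controls overlapped one another, at 53.3, 51.9 and 42.4 FPKM. The lines differ in age and transgene, and these cannot be told apart from other differences between them. The locus Gm28661, for example, was at 5589 to 6563 FPKM in all libraries of the ErbB2V664E line and at 0 to 0.000146 FPKM in those of the dnEGFR line. Levels set across the lines are given as values without a test.

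Other genes of the lipocalin and small lipid carrier group were at hand to set beside these 2. Of 13 such genes 8 were tested, and 0 passed the threshold in either comparison by limma, where 0.0942% of all tested loci were called in the dnEGFR line (0.058% higher and 0.0362% lower in mutants) and 0.275% in the ErbB2V664E line (0.138% higher and 0.138% lower). Over 9 such pathway lists with 104 tested genes, 9 genes had an unadjusted p under 0.05 in the dnEGFR comparison and 12 in the ErbB2V664E comparison, with 0 called in either. Over all 13803 tested loci, 786 and 1675 had such a p by limma in the dnEGFR and ErbB2V664E comparisons. Apoe, the main apolipoprotein of the brain, was at 276 ± 34.4 FPKM in ErbB2V664E mutants and 195 ± 10.4 FPKM in controls (SD, n = 3 each). These groups did not overlap, with a difference of 0.49 and adjusted p = 0.161 by limma. Apoe in the dnEGFR line was at 229 ± 28 FPKM in mutants and 214 ± 22.0 FPKM in controls. Clu, another secreted lipid-binding protein, was at 251 ± 9.31 FPKM in ErbB2V664E mutants and 234 ± 10.9 FPKM in controls. Fabp7, a fatty acid carrier of glial precursors and astrocytes, was at 21.3 ± 10.3 FPKM in dnEGFR mutants and 15.2 ± 7.23 in controls, a difference of 0.48 (adjusted p = 0.987). Fabp5, a related carrier, was at 9.91 ± 3.10 in ErbB2V664E mutants and 12.8 ± 1.82 in controls.

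Of 19 genes of prostaglandin synthesis, breakdown, transport and reception, 10 were tested and 0 passed in either comparison. Ptgs2, the inducible cyclooxygenase that supplies the substrate of Ptgds, was at 3.41 ± 1.27 FPKM in ErbB2V664E mutants and 2.62 ± 0.737 in controls, and at 1.56 ± 0.696 in dnEGFR mutants and 2.18 ± 0.621 in controls. The receptors of prostaglandin D2, Ptgdr and Ptgdr2, did not reach the filter. Ptger4, a receptor for prostaglandin E2, was at 3.28 ± 1.01 FPKM in ErbB2V664E mutants and 1.66 ± 0.197 in controls (difference 0.66, adjusted p = 0.157), and these groups did not overlap. The values of Ptger4 and Ptgis each come from 1 of 3 loci with the symbol, a locus with 1 assembled transcript and 0 reference transcripts, so they may not be those of the annotated genes. Ptgis, the prostacyclin synthase, was at 1.72 ± 0.717 in ErbB2V664E mutants and 1.00 ± 0.550 in controls. Cbr1, a carbonyl reductase that acts on prostaglandins, was at 12.5 ± 0.937 in dnEGFR mutants and 8.89 ± 4.50 in controls (0.57, adjusted p = 0.953). Ptges3, a cytosolic prostaglandin E synthase and chaperone partner, had differences of -0.12 and -0.11 in the dnEGFR and ErbB2V664E lines.

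Trf, the iron carrier, was lower in ErbB2V664E mutants and close to its controls in dnEGFR mutants. The value comes from a locus in which the assembly joined Trf with Srprb and Gm20425, so its part from Trf alone was not measured. Trf had 56.5, 50.3 and 51.5 FPKM in dnEGFR mutants, against 58.5, 52.1 and 59.2 FPKM in controls, with overlap. The difference was -0.10 (SE 0.18, 95% interval -0.49 to 0.29, adjusted p = 1). Trf had 38.4, 21.2 and 25.9 FPKM in ErbB2V664E mutants, against 54.1, 48.5 and 51.4 FPKM in controls. Every mutant was below every control, with a ratio of means of 0.555 and littermate differences of -0.48, -1.16 and -0.96.

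Of 16 genes of iron uptake, storage, export and sensing 13 were tested, and 0 passed in either comparison. Of the 13, 3 were higher in every ErbB2V664E mutant than in any control, namely Tfrc, Fth1 and Cp, against 9.28% of all tested loci. Tfrc, the receptor that takes up transferrin, was at 10.5 ± 1.53 FPKM in ErbB2V664E mutants and 6.77 ± 1.21 in controls (0.57, adjusted p = 0.134). Fth1, the heavy chain of the iron store ferritin, was at 1604 ± 131 FPKM in ErbB2V664E mutants and 1332 ± 108 in controls (0.27, adjusted p = 0.704). Cp, a ferroxidase that helps iron leave cells, was at 1.61 ± 0.310 in ErbB2V664E mutants and 1.09 ± 0.0699 in controls. Ftl1, the light chain of ferritin, overlapped between the groups in both lines. Slc11a2, an iron importer, was at 3.25 ± 0.0976 FPKM in dnEGFR mutants and 2.77 ± 0.256 in controls (0.17, adjusted p = 0.985).

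Il33, an alarmin of the interleukin-1 family that is held in the nucleus and released when cells are damaged, was low in all groups. Il33 had 1.56, 6.5 and 7.57 FPKM in dnEGFR mutants, against 2.83, 7.51 and 3.15 FPKM in controls. Both groups spanned low and high mice, and the difference of 0.09 had the widest interval of the 10 genes (SE 0.43, 95% interval -0.87 to 1.06, adjusted p = 1). Levels of Il33 in ErbB2V664E mutants were 3.38, 2.51 and 3.54 FPKM, against 8.54, 6.49 and 7.35 FPKM in controls. The groups did not overlap, the ratio of means was 0.421, and the littermate differences of -1.12, -1.09 and -0.88 were the most even of the 6 genes that were lower. Its receptor Il1rl1 did not reach the filter, with 0.00758 to 0.0907 FPKM over the 12 libraries. Of 13 genes of the interleukin-1 family and its signalling 12 were in the table and 5 were tested, with 0 called in either line. Il18, a related cytokine, was at 3.75 ± 0.337 FPKM in ErbB2V664E mutants and 5.02 ± 1.11 in controls (-0.33, adjusted p = 0.402). The coreceptor Il1rap and the adaptor Myd88 had differences of -0.15 and -0.22 in that line. Irak1, a kinase of this pathway, was at 8.49 ± 0.780 in ErbB2V664E mutants and 7.27 ± 0.470 in controls, and the ligase Traf6 was at 1.22 ± 0.520 in dnEGFR mutants and 2.10 ± 0.365 in controls.

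Car2, which interconverts carbon dioxide and bicarbonate, was lower in ErbB2V664E mutants and uneven in the dnEGFR line. Car2 had 41.5, 40.3 and 23.0 FPKM in dnEGFR mutants, against 25.5, 30.2 and 63.4 FPKM in controls. The pairs went both ways, with 0.68, 0.41 and -1.42, and the mean difference was -0.11 (SE 0.34, 95% interval -0.88 to 0.65, adjusted p = 1). Car2 had 20.8, 24.5 and 14.7 FPKM in ErbB2V664E mutants, against 41.2, 45.8 and 56.2 FPKM in controls. Every mutant was below every control, with a ratio of means of 0.419 and a log2 difference of -1.23, the lowest of the 10 genes.

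Of 15 carbonic anhydrases and acid-base transporters 11 were tested, with 0 called in either comparison. Of the 11, 4 were lower and 1 was higher in every ErbB2V664E mutant than in any control, against 8.96% and 9.28% of all tested loci. Slc4a4, a sodium bicarbonate cotransporter, was at 7.69 ± 1.58 FPKM in ErbB2V664E mutants and 12 ± 2.17 in controls (-0.59, adjusted p = 0.212). Car12, a membrane-bound carbonic anhydrase, was at 2.12 ± 0.898 in ErbB2V664E mutants and 3.09 ± 0.636 in controls, and at 2.53 ± 1.26 in dnEGFR mutants and 1.34 ± 0.691 in controls. Car11, a relative that lacks catalytic activity, shared its locus with the clock gene Dbp. It was at 18.4 ± 1.68 FPKM in dnEGFR mutants and 13.9 ± 0.869 in controls (0.38, adjusted p = 0.539), and at 20.6 ± 0.914 in ErbB2V664E mutants and 27.7 ± 3.12 in controls (-0.41, adjusted p = 0.155).

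Qdpr, which regenerates tetrahydrobiopterin, followed the same pattern as Trf. Qdpr had 42.9, 37.0 and 42.1 FPKM in dnEGFR mutants, against 38.6, 41.3 and 52.5 FPKM in controls, a difference of -0.11 (SE 0.22, 95% interval -0.60 to 0.39, adjusted p = 1). Levels of Qdpr in ErbB2V664E mutants were 37.1, 21.4 and 18.9 FPKM, against 55.8, 45.0 and 50.1 FPKM in controls. Every mutant was below every control and mutant 1 was the nearest to them, with littermate differences of -0.58, -1.04 and -1.36 and a ratio of means of 0.513. The annotated antisense gene Gm42413 overlaps Qdpr. Without a strand-keeping step in the protocol the reads of both cannot be told apart. Of 13 genes of tetrahydrobiopterin synthesis, recycling and use 8 were tested and 0 passed in either line. Pts, which acts in its synthesis, had differences of -0.13 and 0.11 in the dnEGFR and ErbB2V664E lines. Nos1, a nitric oxide synthase that uses it, was at 3.72 ± 0.220 FPKM in dnEGFR mutants and 2.83 ± 0.299 in controls (0.30, adjusted p = 0.835), with no overlap. Of its other recycling enzymes, Pcbd1 was at 2.27 ± 0.468 in dnEGFR mutants and 1.70 ± 1.03 in controls, and Pcbd2 at 2.12 ± 0.200 in ErbB2V664E mutants and 1.40 ± 0.152 in controls (0.38, adjusted p = 0.243).

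Anln and Ppp1r14a act on the cytoskeleton, and neither separated the groups in either line. Anln encodes anillin, which binds actin, myosin and septins and holds the septin filaments of myelin. It was at 6.64, 4.83 and 4.51 FPKM in dnEGFR mutants, against 6.26, 4.32 and 6.27 FPKM in controls, a difference of -0.06 (SE 0.16, 95% interval -0.41 to 0.29, adjusted p = 1). ErbB2V664E mutants had 6.18, 5.99 and 6.53 FPKM of Anln, against 6.83, 5.94 and 5.31 FPKM in controls. This was the smallest difference of the 10 genes there, 0.05, and the pairs gave -0.13, 0.01 and 0.25. The locus joined Anln with Rp9, so the value is not that of Anln alone.

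Ppp1r14a encodes an inhibitor of myosin light chain phosphatase. Ppp1r14a had 3.02, 4.88 and 6.41 FPKM in dnEGFR mutants, against 5.19, 2.95 and 6.47 FPKM in controls, a difference of -0.02 (SE 0.33, 95% interval -0.75 to 0.71, adjusted p = 1). Ppp1r14a had 2.96, 3.63 and 7.43 FPKM in ErbB2V664E mutants, against 2.40, 2.89 and 3.21 FPKM in controls. Mutant 3 was above all other libraries of that line, mutant 1 lay within the controls, and the mean difference was 0.49. Without mutant 3 it was 0.16, and without mutant 1 it was 0.71. With a second, lower locus of the same symbol added, the means were 5.98 FPKM in ErbB2V664E mutants and 4.23 FPKM in controls, and 5.87 FPKM in dnEGFR mutants and 5.85 FPKM in controls. Of 25 symbols for septins, actomyosin kinases and myosin phosphatase subunits, which include both the older and newer symbols of the septins, 20 were in the table and 19 were tested, with 0 called in either line. Ppp1r14b, a paralogue of the inhibitor, was at 6.41 ± 0.642 FPKM in dnEGFR mutants and 3.73 ± 1.18 in controls with no overlap (0.68, adjusted p = 0.569), and its difference in the ErbB2V664E line was 0.00. Ppp1r12b, a targeting subunit of the phosphatase, was at 3.12 ± 0.206 in dnEGFR mutants and 4.56 ± 1.75 in controls (-0.39, adjusted p = 0.987). Sept7, a core septin of such filaments, had differences of -0.13 and -0.07, and Myl12b, a myosin light chain, -0.08 and 0.10, in the dnEGFR and ErbB2V664E lines. Rock2, a kinase that acts on this phosphatase, had differences of 0.31 and 0.27. Cdc42ep2, a septin-binding effector of Cdc42, varied widely in the dnEGFR line, at 3.87 ± 5.73 FPKM in mutants and 2.78 ± 4.26 in controls.

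Ndrg1, a gene induced by low oxygen and needed by myelinating Schwann cells, was uneven in the dnEGFR line. It was at 7.99, 15.8 and 16.3 FPKM in mutants, against 19.4, 6.12 and 9.95 FPKM in controls. The pairs gave -1.18, 1.24 and 0.66, and the mean difference of 0.24 (SE 0.39, 95% interval -0.62 to 1.10, adjusted p = 1) was the highest of the 10 genes in this comparison. ErbB2V664E mutants had 19.1, 13.2 and 9.45 FPKM of Ndrg1, against 26.2, 22.3 and 23.2 FPKM in controls. The groups did not overlap, with a ratio of means of 0.582 and littermate differences of -0.44, -0.71 and -1.21. Annotated opposite-strand genes, Gm17035 and Gm2895, overlap Ndrg1.

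Its paralogues were not lower in ErbB2V664E mutants. Ndrg2, the astrocytic member, was at 122.8 ± 10.8 FPKM in ErbB2V664E mutants and 121 ± 5.31 in controls, with a difference of 0.02. Ndrg3 was at 39.2 ± 2.93 FPKM in ErbB2V664E mutants and 26.1 ± 10.4 in controls (0.63, adjusted p = 0.467). Ndrg4, the neuronal member, was at 234 ± 38.5 FPKM in ErbB2V664E mutants and 219 ± 12.7 in controls (0.08, adjusted p = 0.844). All 20 genes of the list of NDRG paralogues, hypoxia and oxidative stress were tested and 0 passed in either comparison. Srxn1, which repairs oxidised peroxiredoxins, was at 4.98 ± 3.90 FPKM in dnEGFR mutants and 1.49 ± 0.765 in controls (0.99, adjusted p = 0.919), and at 2.60 ± 0.499 in ErbB2V664E mutants and 1.35 ± 0.295 in controls (0.61, adjusted p = 0.685). Egln1, an oxygen sensor, was at 11.8 ± 6.48 in dnEGFR mutants and 4.91 ± 1.25 in controls (0.97, adjusted p = 0.874), with overlap. Sgk1, a stress- and hormone-regulated kinase that acts on Ndrg1, was at 43.5 ± 13.7 FPKM in ErbB2V664E mutants and 25.6 ± 5.82 in controls (0.71, adjusted p = 0.395). Of 12 genes of the unfolded protein and integrated stress responses 10 were tested and 0 passed. Dnajb9, a chaperone partner of the endoplasmic reticulum, was at 2.60 ± 0.0635 FPKM in dnEGFR mutants and 10.6 ± 6.92 in controls (-1.41, adjusted p = 0.687 by limma). The groups overlapped, since dnEGFR controls 1 to 3 were at 2.61, 14.3 and 14.9 FPKM and control 1 lay within the range of the mutants. Xbp1, a transcription factor of this response, was at 7.76 ± 1.02 in dnEGFR mutants and 4.87 ± 2.03 in controls. Hsp90b1, Atf4 and Asns had ErbB2V664E differences of -0.26, 0.05 and 0.21.

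Plekhb1, a membrane-binding protein with a pleckstrin homology domain that is abundant in white matter, had the highest dnEGFR mean of the 10 genes. It was at 80.2, 74.9 and 72.2 FPKM in dnEGFR mutants, against 72.3, 78.1 and 96.8 FPKM in controls, a difference of -0.11 (SE 0.17, 95% interval -0.48 to 0.26, adjusted p = 1). Plekhb1 had 81.5, 51.6 and 57.9 FPKM in ErbB2V664E mutants, against 89.7, 85.8 and 101 FPKM in controls. Every mutant was below every control, although mutant 1 was close to the lowest of them, and the ratio of means was 0.691.

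Set together, the 10 genes showed no called change in dnEGFR mutants. By limma 0 of 10 passed the threshold, against 0.0942% of all tested loci (0.058% higher and 0.0362% lower), and 0 of 10 had an unadjusted p under 0.05, where 786 of 13803 loci did. The lowest unadjusted p was that of Apod, 0.268. The median difference of the 10 genes was -0.08 with 7 of 10 below 0, against 0.01 and 48.1% below 0 over all tested loci. Among the 10, 1 gene did not overlap between groups, Apod, against 10.1% of all loci in either direction, 5.58% higher and 4.57% lower in mutants. The intervals rest on 3 mice a group and on a spread pooled over all 4 groups. They were wide, and the narrowest, that of Anln, still reached a difference of -0.41 and 0.29.

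In the ErbB2V664E line 7 of the 10 genes did not overlap between mutants and controls, 1 higher (Ptgds) and 6 lower (Trf, Car2, Il33, Qdpr, Ndrg1 and Plekhb1). Over all loci 18.2% did not overlap, 9.28% higher and 8.96% lower in every mutant than in any control, but nothing is read from this since the genes were chosen on that comparison. The median difference of the 10 was -0.67, with 6 of 10 below 0. Without mutant 1 the count was 9, with Apod and Ppp1r14a also higher, where 19.2% and 16.5% of all loci were higher and lower. The mean differences without that mouse were 2.26 for Ptgds, -1.10 for Trf, -1.27 for Car2, -1.08 for Il33, -1.27 for Qdpr, -1.03 for Ndrg1, -0.74 for Plekhb1 and 0.05 for Anln. Each had the sign that it had with all 3 mutants. The plot of littermate differences sets the pairs of both lines side by side.

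**Figure D2:**
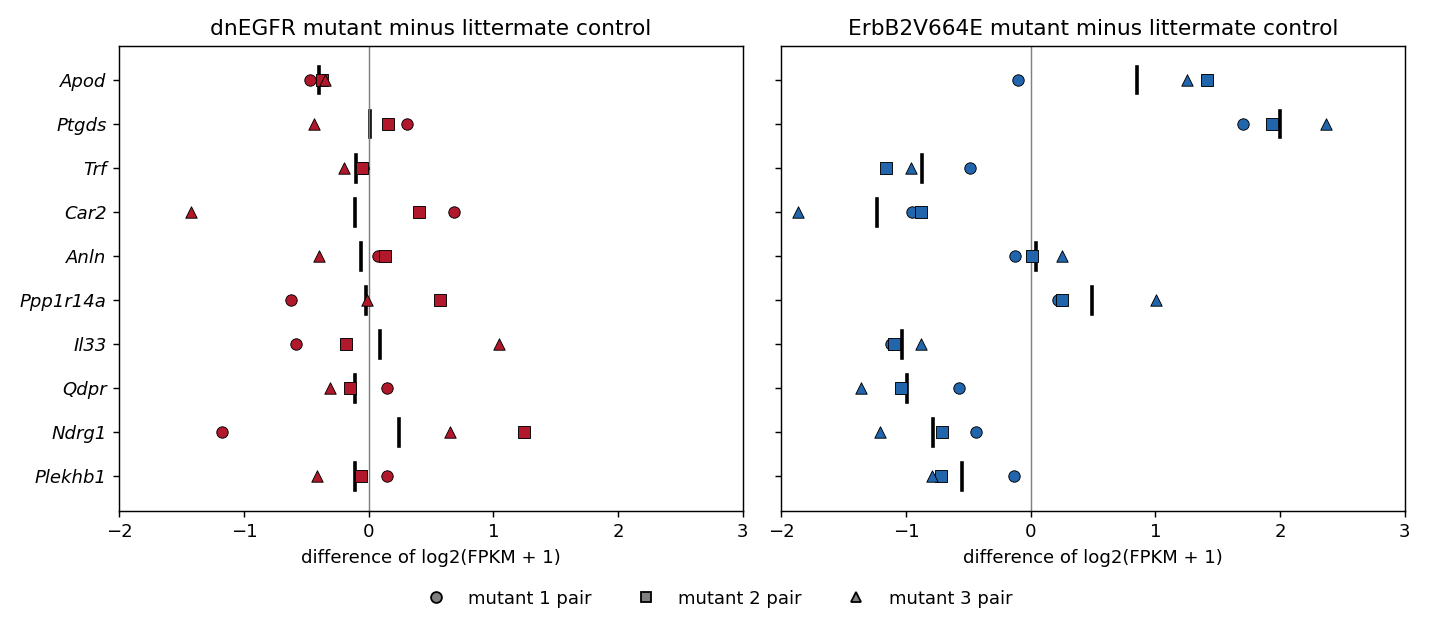
Difference of log2(FPKM + 1) between each mutant and its littermate control (horizontal axis) for the 10 genes, with the dnEGFR line on the left and the ErbB2V664E line on the right, 1 marker shape per pair and a black bar for the mean difference of 3 pairs. In the ErbB2V664E line all 3 pairs of Ptgds lie between 1.70 and 2.37, and the pair of mutant 1 is the one nearest to 0 for Trf, Qdpr, Ndrg1, Plekhb1 and Apod.

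Other mature oligodendrocyte and myelin genes were set beside these, from a list of 28 genes of which 27 were tested. The list was drawn up with earlier results of these data known. In the dnEGFR line the median difference of these genes was -0.17, with 24 of 27 below 0, against 48.1% of all tested loci. In that line 1 of the 27 passed the threshold, against 0.0942% of all tested loci. This was Klk6, a secreted protease of oligodendrocytes, which fell to 1.75 ± 0.251 FPKM in dnEGFR mutants, against 5.29 ± 0.135 in controls (SD, n = 3 each; -1.20, adjusted p = 0.0293). With litter as a block the call was lost (adjusted p = 0.115), and it was also lost when any library of the line but mutant 3 was left out. A pseudocount of 0.1, no filter and a filter of 5 FPKM also ended the call. It was lost in 9 of the 13 alternatives, over which the adjusted p by limma ranged from 0.0270 to 0.192. Of the 27 genes, 3 were lower and 0 higher in every dnEGFR mutant than in any control, against 4.57% and 5.58% of all loci. Besides Klk6, these held Gsn, at 9.02 ± 0.544 FPKM in dnEGFR mutants and 15.3 ± 1.06 in controls (-0.70, adjusted p = 0.394 by limma).

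The ErbB2V664E values of these myelin genes were part of what led to the choice of the 10, so they too are given as a description without a test. Their median difference was -0.78, with 24 of 27 below 0, and 12 were lower and 0 higher in every mutant than in any control, against 8.96% and 9.28% of all loci. Klk6 was at 0.288 ± 0.120 FPKM in ErbB2V664E mutants and 4.60 ± 1.34 in controls, a difference of -2.09. Mag, the myelin-associated glycoprotein that faces the axon, was at 44.5 ± 13.4 FPKM in mutants and 103 ± 14.6 in controls (-1.22). Gsn, the actin-severing protein gelsolin, was at 9.51 ± 1.70 FPKM in mutants and 25.1 ± 5.92 in controls (-1.30). Gamt, an enzyme of creatine synthesis, was at 3.84 ± 1.36 FPKM in mutants and 9.87 ± 1.96 in controls (-1.19). None of these genes overlapped between the groups.

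Mbp, which encodes myelin basic protein, was at 485 ± 64.0 FPKM in ErbB2V664E mutants and 716 ± 140 in controls (-0.55). Trf, Car2, Il33, Qdpr, Ndrg1 and Plekhb1, with differences of -0.55 to -1.23, lay within the range of these genes. Ermn had the widest difference of the list in the dnEGFR line (2.23, adjusted p = 0.918 by limma). It was at 42.5, 30.9 and 38.0 FPKM in dnEGFR mutants, against 2.75, 2.36 and 40.4 FPKM in controls. Thus 2 of 3 controls stood apart from the third. Ermn was also uneven in ErbB2V664E mutants, at 36.3, 14.6 and 0.731 FPKM, against 40.7, 38.5 and 45.6 FPKM in controls. These groups did not overlap, and the difference was -2.08.

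**Figure D3:**
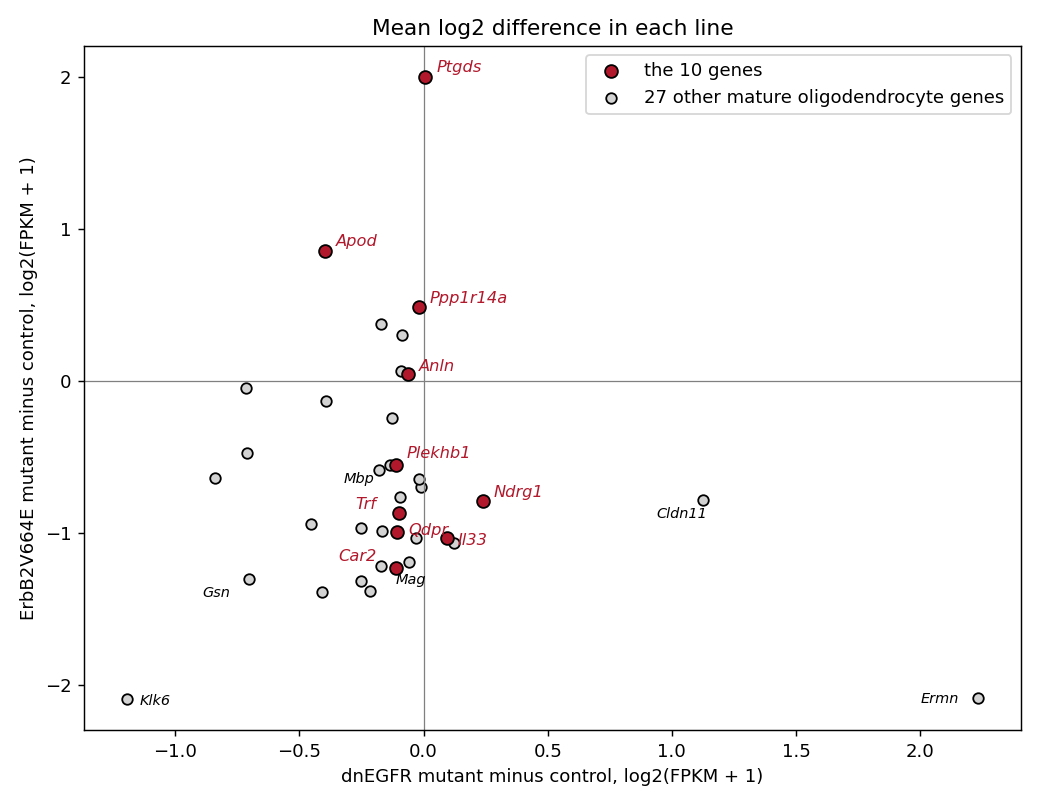
Mean difference of log2(FPKM + 1) between mutants and controls in the dnEGFR line (horizontal axis) and the ErbB2V664E line (vertical axis), 1 point per gene, for the 10 genes (red) and 27 other mature oligodendrocyte genes (grey). Most genes lie near 0 on the horizontal axis and below 0 on the vertical axis, while Ptgds at 2.00 and Apod at 0.86 lie above all grey points, which is the pattern that led to the choice of the 10 genes.

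Markers of other cells moved between libraries, and their part in the values of Apod and Ptgds was not tested. The 9 choroid plexus markers, of which 7 passed the filter, summed to 132 to 700 FPKM in dnEGFR mutants, 20.0 to 717 in dnEGFR controls, 12.2 to 645 in ErbB2V664E mutants and 248 to 574 in ErbB2V664E controls. None of the markers was listed at 0 in every library. ErbB2V664E mutant 2 had the lowest choroid plexus sum of the 12 libraries, 12.2 FPKM, and a Ptgds level of 191 FPKM. ErbB2V664E mutant 1 had a choroid plexus sum of 645 FPKM, above all controls of its line, and a Ptgds level of 120 FPKM. Of the 10 meningeal fibroblast markers 4 passed the filter. All 10 summed to 14.6, 7.67 and 8.41 FPKM in ErbB2V664E mutants 1 to 3 and to 11.7 to 24.8 FPKM in ErbB2V664E controls. In the dnEGFR line they summed to 9.5 to 11.5 FPKM in mutants and 7.30 to 16.4 FPKM in controls. ErbB2V664E mutants 2 and 3, in which Apod and Ptgds were highest, had lower sums of both marker lists than any control of their line, and mutant 1 did not.

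The 5 red blood cell markers summed to 118, 32.5 and 22.1 FPKM in ErbB2V664E mutants 1 to 3 and to 95.5 to 214 FPKM in ErbB2V664E controls, and to 116 to 279 FPKM in dnEGFR mutants and 126 to 155 FPKM in dnEGFR controls. Mutant 1, in which Apod was not high, was the one within the range of its controls. The 8 microglia markers summed to 56.6 to 99.4 FPKM in ErbB2V664E mutants and 98 to 130 FPKM in ErbB2V664E controls. The 9 astrocyte markers summed to 219 to 249 FPKM in ErbB2V664E mutants and 289 to 439 FPKM in ErbB2V664E controls. The 6 endothelial markers summed to 39.9 to 42.2 FPKM in ErbB2V664E mutants and 25.8 to 35.7 FPKM in ErbB2V664E controls. The part of these cells in the differences was not tested. The sum of the 28 other oligodendrocyte genes was 1640, 1010 and 1241 FPKM in ErbB2V664E mutants 1 to 3 and 1756 to 2444 FPKM in ErbB2V664E controls, against 1393 to 1650 FPKM in dnEGFR mutants and 1416 to 1698 FPKM in dnEGFR controls, which shows RNA of mature oligodendrocytes at high levels in every library.

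**Figure D4:**
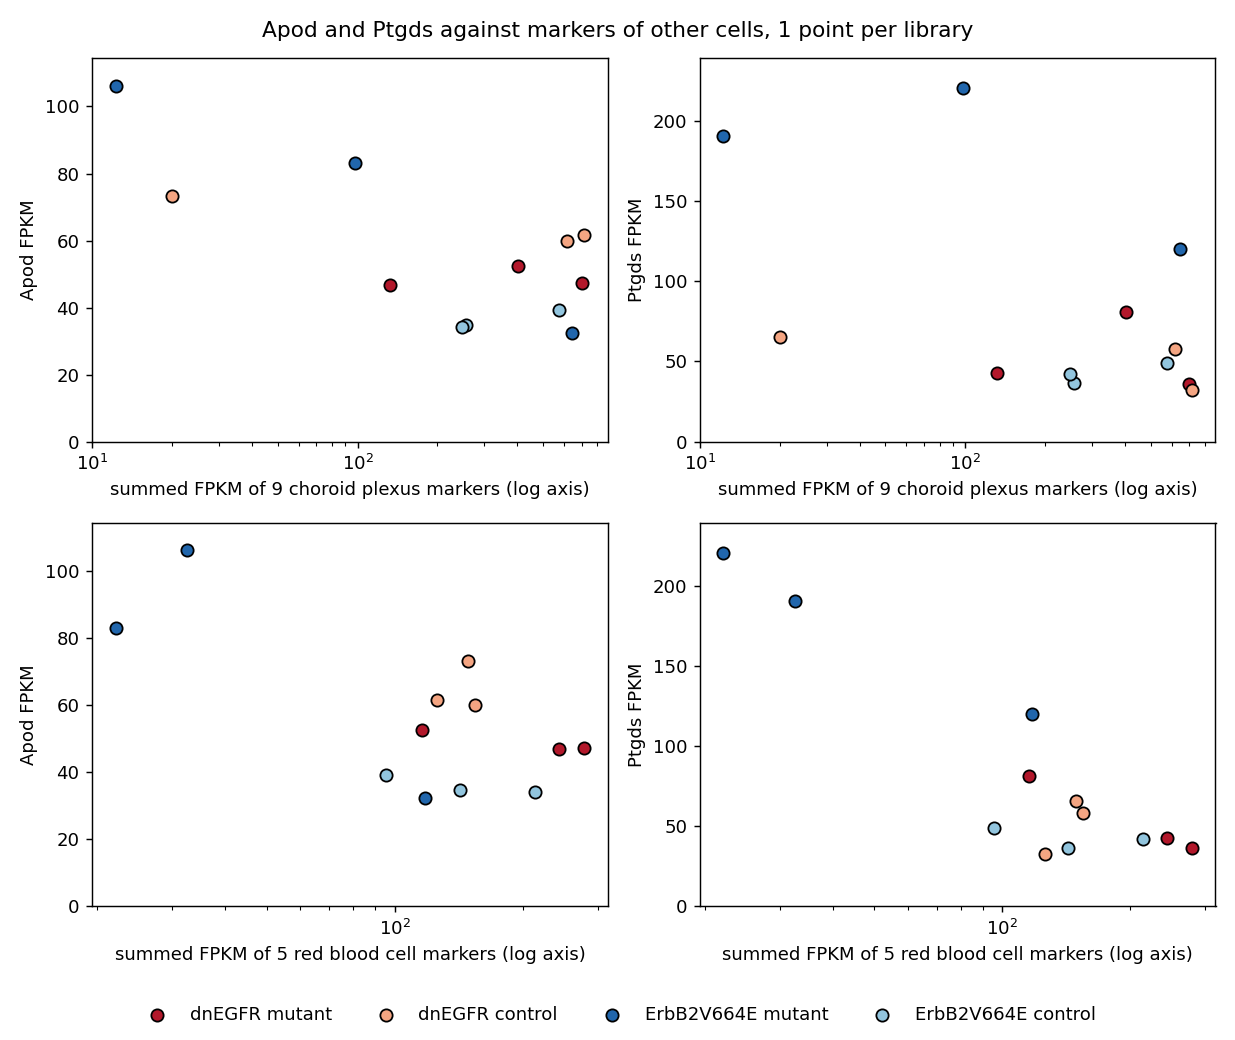
FPKM of Apod (left) and Ptgds (right) on the vertical axes against the summed FPKM of 9 choroid plexus markers (top) and 5 red blood cell markers (bottom) on log horizontal axes, 1 point per library, coloured by group. The highest Apod and Ptgds levels, in ErbB2V664E mutants 2 and 3, stand at red blood cell sums of 32.5 and 22.1 FPKM, the lowest of the 12 libraries.

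Across the 12 libraries the 10 genes fell into no single pattern. Qdpr and Plekhb1 were the most alike pair, with a Pearson correlation of log2(FPKM + 1) of 0.92 over 12 libraries, followed by Trf and Qdpr at 0.90. Ptgds ran opposite to Trf and Qdpr, at -0.83 for both, and Apod opposite to Plekhb1 at -0.78. Apod and Ptgds together reached 0.56. These values describe libraries that share groups, lines and marker content, and the ErbB2V664E mutants used to choose the genes are among them. Among 4795 other loci with a mean of at least 5 FPKM, those most like Apod were Ubald2 (0.89), Gtf2f1 (0.88), Ik (0.87), B230217C12Rik (0.86) and Snrpd3 (0.86). Those most like Ptgds were Fam213a (0.92), Idh2 (0.88), Ptpn11 (0.88), Sult1a1 (0.87) and Cyp2d22 (0.86), each over 12 libraries. Sult1a1, a sulfotransferase, was at 5.81, 11.7 and 17.2 FPKM in ErbB2V664E mutants, against 4.63, 5.90 and 3.46 FPKM in controls. Fam213a was at 15.7, 18.7 and 19.1 FPKM in ErbB2V664E mutants, against 12.5, 11.7 and 11.7 FPKM in controls. Both loci were picked for their likeness to Ptgds over these same libraries, so nothing is read from these differences.

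Gene ontology terms in the deposited table were looked up for the 10 genes, and none of those looked up was given for all 10. The extracellular region or space was given for Apod, Ptgds, Trf, Car2 and Il33, 5 of 10, and for 7.60% of 11268 annotated loci that were tested. The extracellular exosome was given for 6 of the 10 and for 16.4% of those loci. A term that names stress, hypoxia or reactive oxygen was given for Apod, Car2 and Ndrg1, and for 6.61% of those loci. The myelin sheath was given for Car2 and Ndrg1, and for 1.48%. These shares describe a list that was put together by function, and no enrichment was tested.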

How the data were processed

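Total RNA of subcortical white matter was selected for polyadenylated RNA, primed with random hexamers and sequenced in paired ends, per the labels' protocols, with 1 library per mouse. Values deposited by the authors are FPKM, which the design text of the series attributes to StringTie. HISAT and StringTie are named in the submitters' processing notes, without versions. Neither the build nor the annotation or counting options are stated in the sources used here. GENCODE M21 held 99.5% of the 91226 Ensembl transcript identifiers and served to find overlapping genes. Of 33864 loci, 1112 joined more than 1 symbol. The table is an assembly, and uneven assembly of a locus may add to the spread between mice, which was not tested. Depth was estimated from the steps of FPKM times length in 14221 single-transcript loci, and replicates of a group correlated at 0.9097 to 0.9262 with 0 identical columns.

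FPKM values were tested as log2(FPKM + 1) in limma 3.58.1 (R 4.3.3) with 1 mean per group over the 12 libraries and a variance trend, two-sided, with 8 residual and 2.03 prior degrees of freedom. Loci with at least 1 FPKM in at least 3 libraries were kept, and the Benjamini-Hochberg adjustment ran over these 13803 loci, with calls at an adjusted p under 0.05. The procedure was tested on simulated data. The labels pair each mutant with a littermate, so the numbers mark 6 litters, and deviations from the group means correlated at 0.0162, 0.0089, 0.0326, -0.0036, 0.0099 and -0.0253 within pairs. Where several loci carried a symbol, the one with the highest mean FPKM over the 12 libraries was used.

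The 10 genes and the gene lists were chosen with earlier results of these data known. From each pathway list the text names genes past the threshold, the 2 with the highest mean FPKM and the 2 with the widest difference in each comparison. Some genes that this rule picks are not reported here. Alternatives were a pseudocount of 0.1, no filter, a filter of 5 FPKM, rescaling to a common median, litter as a block, no trend with a robust fit, the 6 libraries of a line alone, and each library left out. Tables were made in Python 3.11.15 (numpy 2.4.6, pandas 2.3.3) and figures with matplotlib 3.10.9.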

Additional observations from a re-analysis of the deposited data

Results flagged for a closer look

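Car11, which shares its locus with Dbp, moved in opposite directions in the lines. It was at 17.2, 17.8 and 20.4 FPKM in dnEGFR mutants, against 12.9, 14.5 and 14.4 FPKM in dnEGFR controls, a log2 difference of 0.38. It was at 21.2, 21.1 and 19.5 FPKM in ErbB2V664E mutants, against 31.3, 25.5 and 26.4 FPKM in ErbB2V664E controls, a log2 difference of -0.41. Every mutant was above every control in the dnEGFR line and below every control in the ErbB2V664E line. Neither difference passed the threshold over all loci by limma (adjusted p = 0.539 and 0.155), and the difference between the lines was not tested.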

How the results depend on the processing

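In the dnEGFR comparison 13 loci passed the threshold, against 3 with litter as a replicate block (pairing of littermates), 22 with only the 6 libraries of the line, and 17 to 36 with 1 library left out. In the ErbB2V664E comparison 38 loci passed, against 7 with a filter of 5 FPKM, 7 with the litter block, 23 with only the 6 libraries of the line, and 16 to 262 with 1 library left out, the highest without mutant 1. None of the 10 genes passed in the dnEGFR comparison under any alternative, with adjusted p of 0.904 or more. Of the 60 differences of the 10 genes with 1 library left out in that comparison, 43 kept their sign and 17 changed it. The ranges were -0.34 to 0.24 for Ptgds, -0.36 to 0.28 for Car2, -0.21 to 0.027 for Anln, -0.28 to 0.22 for Ppp1r14a, -0.23 to 0.64 for Il33, -0.19 to 0.023 for Qdpr, -0.12 to 0.64 for Ndrg1 and -0.20 to 0.0098 for Plekhb1. The count of the 10 genes that did not overlap was 1 to 2 in the dnEGFR line, where Trf joined Apod without mutant 1 or control 2, and 7 to 9 in the ErbB2V664E line. In the ErbB2V664E line Il33 moved to -1.23 with a pseudocount of 0.1, and the small difference of Anln lay between -0.03 and 0.13 with 1 library left out. The cause of these changes was not tested. The litter block ended the call of Klk6 in the dnEGFR comparison and changed no other call that is reported. That call was also lost with a pseudocount of 0.1, no filter and a filter of 5 FPKM (adjusted p = 0.0753, 0.0714 and 0.192 by limma). At the estimated depth few fragments stand behind Il1rl1, Ptgdr and Ptgdr2, which lay under the filter.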
